A study of Homo sapiens with 11 samples.

Results

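In RT4 cells, 64 genes rose and 30 genes fell 2 weeks after nickel was withdrawn after lying close to their untreated levels at the end of the exposure. RT4 is a human line from a non-invasive bladder cancer. UT cells were untreated, Ni-E cells had 6 weeks in 100 µM NiCl2, and Ni-W cells had the same exposure followed by 2 weeks in nickel-free medium. No separate untreated culture matched the 2 weeks of washout. In Ni-W, time in culture and the withdrawal of nickel therefore cannot be told apart. Each RT4 group had 2 RNA-Seq libraries, called replicates 1 and 2 here, from RNA that the study describes as biological duplicates. The second data type was H3K4me3 ChIP-Seq of BEAS-2B cells, an immortalized bronchial epithelial line, in which UT, Ni-E and Ni-W cells had 1 library apiece. The BEAS-2B Ni-W cells were a population grown from a single colony, sampled months after the exposure ended. Nickel was the only agent named for either line.

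The 94 genes were chosen by their RNA levels in these same 6 libraries. Levels are given as TPM, which is scaled to transcript length and library total. A pseudocount of 0.5 TPM was added, and ratios were taken within a replicate number, so that the Ni-E and Ni-W ratios of a replicate share its UT library. The Ni-E/UT ratio had to lie between 0.8 and its reciprocal in both replicates. The Ni-W/UT ratio had to be at least 1.4 in both replicates for a rise, or at most 0.71 in both for a fall. The highest group mean had to reach 2 TPM, which 12467 of the 28252 listed genes did. Of those, 6844 met the bound on Ni-E. Since the levels chose the genes, they are given as a description with no test, and "rose" and "fell" below mean that a gene passed these bounds.

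The libraries held 17075833 to 27736454 estimated counts each, and replicate 1 of every group was the shallower. All 12 urothelium markers examined reached 1 TPM in a library, and their summed level, most of it from KRT7 and KRT18, ranged from 7190 to 7860 TPM in UT cells, 7860 to 8120 TPM in Ni-E cells and 8100 to 9700 TPM in Ni-W cells. With the replicate number as a block, edgeR called 6 of the 12 lower in Ni-E and 2 lower in Ni-W. Over all 14502 genes tested, the same fit called 725 lower in Ni-E (5.0%) and 403 lower in Ni-W (2.78%). KRT20, a marker of superficial urothelial cells, was at 11.07 and 11.27 TPM in UT, 0.25 and 0.11 TPM in Ni-E, and 1.59 and 1.37 TPM in Ni-W. UPK1A, a uroplakin, was at 70.57 and 92.53 TPM in UT, 16.1 and 18.47 TPM in Ni-E, and 39.58 and 44.42 TPM in Ni-W. KRT20 and UPK1A were the 2 markers that met the fall bound on Ni-W, and 0 of the 12 met the rise bound. Others lay on both sides of UT in Ni-W, such as UPK3A with ratios of 1.43 and 1.33 and EPCAM with 0.756 and 0.709. Of 6 leukocyte markers, CD68 alone reached 1 TPM, and the summed level was 7.58 to 8.14 TPM in UT, 10.9 to 13.5 TPM in Ni-E and 13.6 to 13.7 TPM in Ni-W cells, while PTPRC, the common leukocyte antigen, stayed below 1 TPM and CD3E was listed at 0. Of 6 fibroblast markers, COL3A1 alone reached 1 TPM, with summed levels of 1.09 to 1.73 TPM in UT, 3.01 to 4.75 TPM in Ni-E and 2.34 to 5.13 TPM in Ni-W cells, and COL1A2 and DCN were listed at 0. Of 4 endothelium markers, VWF alone reached 1 TPM in a library, and the sum stayed between 0.61 and 1.9 TPM. The part of leukocytes, fibroblasts and endothelium in the changes below was not tested, and in bulk RNA fewer cells of a type and less RNA per cell cannot be told apart. Across the genes with at least 2 TPM, the median log2 Ni-W/UT ratio was 0.104 in replicate 1 and -0.03 in replicate 2, so the 2 replicates were not centred alike. With TPM rescaled by TMM factors, 53 of the 64 rising and 25 of the 30 falling genes still met the rule, and with CPM and TMM factors 43 and 24 did.

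Cells answer interferon through the JAK-STAT pathway, in which STAT2 and IRF9 are parts of a complex that binds a promoter element known as the interferon-stimulated response element (ISRE). The genes switched on in this way include guanylate-binding proteins, antigen presentation genes and feedback inhibitors such as SOCS1. Immediate early genes such as FOS and ZFP36 are transcribed within minutes of a growth factor or stress signal, and their messenger RNAs are short-lived. Of the 64 rising genes, 2 (GBP1 and STAT2) were on the list of interferon-stimulated genes, of which 46 had at least 2 TPM. A wider group of 21 rising genes with a known part in interferon or immune signalling was made after the values were seen, to order the account, and has no count over all genes to be set against. The falling genes include FOS and ZFP36.

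The 8 rising genes with an ISRE in their promoters are described first, with the sequences of 7 of them. Promoters were 300-base windows from RefSeq on GRCh38.p14, 250 bases before to 50 bases after the gene start, and 47 of the 64 rising genes and 27 of the 30 falling genes were matched to one. The letters GAAANNGAAA were searched on both strands, and capitals mark the matches. The whole window is shown for 4 genes, GBP1 and GBP3 (interferon-inducible GTPases), B2M (the light chain of MHC class I) and SOCS1 (an inhibitor of JAK kinases), all written 5′ to 3′ on the strand of the gene.

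GBP1 (chr1:89065159-89065458, minus strand): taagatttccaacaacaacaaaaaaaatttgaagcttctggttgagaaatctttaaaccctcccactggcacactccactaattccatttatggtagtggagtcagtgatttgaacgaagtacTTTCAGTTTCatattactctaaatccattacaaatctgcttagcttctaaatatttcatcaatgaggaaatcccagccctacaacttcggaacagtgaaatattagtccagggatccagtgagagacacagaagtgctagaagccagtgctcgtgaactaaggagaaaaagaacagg
GBP3 (chr1:89022817-89023116, minus strand): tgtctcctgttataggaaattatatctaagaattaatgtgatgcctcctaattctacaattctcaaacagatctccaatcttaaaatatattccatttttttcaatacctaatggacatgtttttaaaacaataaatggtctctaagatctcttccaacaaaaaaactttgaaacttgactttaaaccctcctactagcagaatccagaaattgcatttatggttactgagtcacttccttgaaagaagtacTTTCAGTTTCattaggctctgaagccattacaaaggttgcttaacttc
B2M (chr15:44711267-44711566, plus strand): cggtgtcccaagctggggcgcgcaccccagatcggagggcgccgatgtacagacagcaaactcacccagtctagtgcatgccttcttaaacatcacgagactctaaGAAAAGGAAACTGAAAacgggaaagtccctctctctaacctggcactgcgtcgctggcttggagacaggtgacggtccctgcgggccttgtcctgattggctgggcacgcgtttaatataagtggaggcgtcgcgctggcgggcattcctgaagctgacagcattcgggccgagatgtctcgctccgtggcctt
SOCS1 (chr16:11256155-11256454, minus strand): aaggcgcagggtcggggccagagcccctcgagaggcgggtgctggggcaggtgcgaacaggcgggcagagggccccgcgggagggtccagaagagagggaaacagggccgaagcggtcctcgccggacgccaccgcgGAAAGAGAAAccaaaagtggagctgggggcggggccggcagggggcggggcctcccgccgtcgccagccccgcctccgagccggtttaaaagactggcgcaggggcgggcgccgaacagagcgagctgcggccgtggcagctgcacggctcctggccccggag

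The match in GBP1 began 127 bases before the gene start and that in SOCS1 began 113 bases before it. B2M held a pair of overlapping matches, which began 144 and 138 bases before the start. The match in GBP3 lay just inside the gene. GBP1 and GBP3 carried the same 10 letters. TNFRSF1B, LGALS9 and GIMAP2 are shown by the match with 10 bases on each side, to let the letters be compared. TNFRSF1B is a receptor for tumour necrosis factor, LGALS9 encodes galectin-9, a secreted lectin that acts on immune cells, and GIMAP2 is a GTPase of the immunity-associated family. PRKCQ, the other gene with a match, is a protein kinase C known from T-cell receptor signalling.

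TNFRSF1B (chr1:12166971-12167000, plus strand): gggcgcgggcTTTCGCTTTCagtcgagggc
LGALS9 (chr17:27631169-27631198, plus strand): gttgctttggTTTCTATTTCtttgttaagt
GIMAP2 (chr7:150685697-150685726, plus strand): tcggttttacTTTCTTTTTCtcttggagct

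The ISRE letters were found in 8 of 47 rising promoters (17%) and in 0 of 27 falling promoters. Among the promoters of all genes with at least 2 TPM, 257 of 9656 (2.66%) held them, and among all RefSeq promoters 3.65% did. STAT2, itself an interferon-stimulated gene, had no match in its window. The shares are a description, and a match is not evidence that a factor bound.

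The other motifs searched are given in the same way. The letters TTCNNNGAA, to which STAT dimers bind, were in 6 rising promoters (12.8%) and 2 falling ones (7.41%), against 6.23% of the promoters of genes with at least 2 TPM. A kappa-B site was in 9 rising promoters (19.1%), including B2M, SOCS1, EBI3, ID2, IGFBP5 and WNT10A, and in 4 falling ones (14.8%), against 12.9%. The CArG box of serum response factor was in 2 falling promoters (7.41%), those of HIST2H2BE and GPC2, and in 2 rising ones (4.26%), against 1.06%. The AP-1 letters TGANTCA were in 2 rising promoters (4.26%) and 2 falling ones (7.41%), against 4.71%. The hypoxia response core ACGTG was in 8 rising promoters (17%) and 3 falling ones (11.1%), against 26.9%. The cAMP response element TGACGTCA was in none of either set, against 3.26%. GBP3 held TTCNNNGAA, the AP-1 letters and the ISRE. Matches of different motifs shared a base in 0 of the rising and 0 of the falling promoters. The median GC content of the windows was 64.0% for rising genes, 68.7% for falling genes and 65.3% for all genes with at least 2 TPM.

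**Figure D1:**
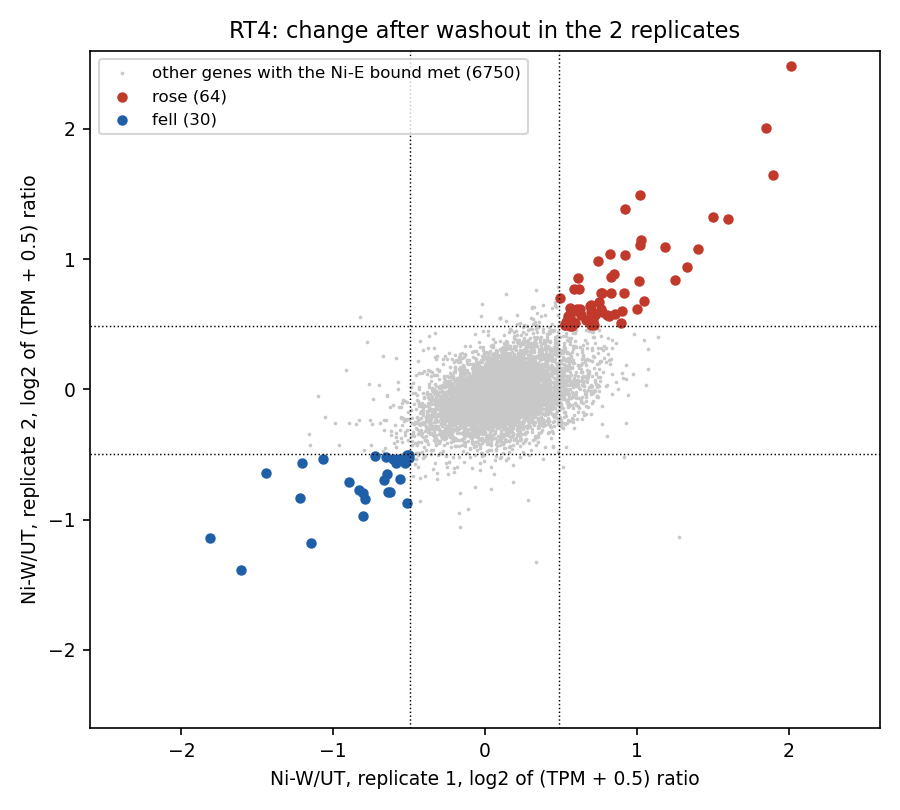
The Ni-W/UT ratio of TPM + 0.5 in replicate 1 (x axis) and replicate 2 (y axis), both log2, for the 6844 genes that met the bound on Ni-E. Red points are the 64 rising genes, blue points the 30 falling genes, grey points the other genes, and dotted lines the bounds on Ni-W. MIR671, SNORA3A, LOC102724323 and 10 other genes lie beyond the axes. The median Ni-W/UT ratio of the 6844 genes was 1.06 in replicate 1 and 0.972 in replicate 2. More genes pass the upper bound in replicate 1 alone, and whether the shift accounts for this was not tested.

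The rising genes had a median Ni-W/UT ratio of 1.69 in replicate 1 and 1.55 in replicate 2, and a median Ni-E/UT ratio of 1.06 and 1.08. Ni-E was above UT in both replicates in 37 of the 64 genes and below UT in both in 6. Over the 12467 genes with at least 2 TPM, these numbers were 4477 and 4642. Ni-W/UT was at least 2-fold in both replicates in 11 genes, against 265 of those 12467. The ratio was larger in replicate 1 than in replicate 2 in 44 of the 64. That was also so in 8497 of the 12467 genes with at least 2 TPM, a similar share. The bounds were met by 908 genes in replicate 1 alone and by 154 in replicate 2 alone, so that replicate 2 set most of the limit. In 54 rising genes, both Ni-W libraries were above all UT and Ni-E libraries, which held for 644 of the 12467 genes with at least 2 TPM (5.17%). The 10 others were TIMP3, STAT2, IRAIN, SBF1, SHCBP1, HOXA6, PIAS1, MPP2, PRKCQ and HHLA3, whose libraries overlapped although each replicate moved the same way. Ni-W was also at least 1.4-fold above Ni-E in both replicates in 35 of the 64, against 413 of the 12467 genes.

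EBI3, a subunit of the cytokines IL-27 and IL-35, had the largest relative rise after MIR671, which rests on 2.64 estimated counts. Its level was 0.31 and 0.13 TPM in the UT libraries, 0.31 and 0.25 TPM in Ni-E, and 2.77 and 3.03 TPM in Ni-W. It was close to the limit of what was counted before washout, with 84 estimated counts over all 6 libraries, and its Ni-W/UT ratio was 4.04 in replicate 1 and 5.6 in replicate 2. TNFRSF1B stood at 2.32 and 1.86 TPM in UT, 2.34 and 2.28 TPM in Ni-E, and 8.06 and 5.33 TPM in Ni-W. Both Ni-W libraries were above the other 4, with ratios of 3.04 and 2.47.

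GBP1 and GBP3 are neighbouring genes on chromosome 1 that encode interferon-inducible guanylate-binding proteins. GBP1 was at 12.07 and 9.1 TPM in UT, 11.14 and 7.68 TPM in Ni-E, and 32.68 and 19.78 TPM in Ni-W. It was lower in Ni-E than in UT in both replicates before it stood 2.64-fold and 2.11-fold above UT after washout, a log2 difference of 1.24 ± 0.23 (SD, n = 2). GBP3 was at 35.01 and 29.57 TPM in UT, 33.51 and 32.55 TPM in Ni-E, and 72.95 and 47.67 TPM in Ni-W. Both genes separated Ni-W from the other 4 libraries, and GBP3 rose less, with ratios of 2.07 and 1.6. They are paralogs, and their estimated counts summed to whole numbers, 3004 and 8707. Whole counts cannot show whether reads fitted both genes, because the study describes removing reads with multiple hits.

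STAT2, the transcription factor that acts with IRF9 on the ISRE, was at 38.18 and 28.18 TPM in UT, 44.83 and 32.22 TPM in Ni-E, and 65.42 and 42.67 TPM in Ni-W. Its Ni-W level in replicate 2 was below its Ni-E level in replicate 1, so the groups overlapped, while the ratios of 1.7 and 1.51 had the same direction. B2M was the most abundant of all 94 genes, at 1709 and 1396 TPM in UT, 1841 and 1669 TPM in Ni-E, and 2767 and 2022 TPM in Ni-W. Its ratios were 1.62 and 1.45, and both Ni-W libraries lay above the rest. SOCS1 was at 6.48 and 8.14 TPM in UT, 7.26 and 6.83 TPM in Ni-E, and 10.21 and 14.27 TPM in Ni-W.

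Other rising genes of interferon or immune function covered receptors, ligands and intracellular signalling. CARD16, which interferes with caspase-1, was at 6.16 and 7.56 TPM in UT, 7.56 and 9.42 TPM in Ni-E, and 12.99 and 16.84 TPM in Ni-W. It was one of the genes with an early difference, at 1.21-fold and 1.23-fold in Ni-E before 2.03-fold and 2.15-fold in Ni-W. LGALS9 moved the other way during exposure, from 1.12 and 0.99 TPM in UT to 0.81 and 0.89 TPM in Ni-E, and stood at 2.78 and 3.7 TPM in Ni-W. CD69, a membrane protein of activated lymphocytes, had the same course, with 9.1 and 8.69 TPM in UT, 7.19 and 7.48 TPM in Ni-E, and 22.38 and 15.91 TPM in Ni-W. FPR3, a formyl peptide receptor, was at 7.05 and 3.65 TPM in UT, 6.5 and 3.74 TPM in Ni-E, and 14.87 and 8.71 TPM in Ni-W. Before washout CARD16 was slightly above UT, LGALS9 and CD69 were slightly below it and FPR3 was mixed, and after washout all 4 genes separated Ni-W from the other libraries.

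Further members of this group were a receptor, kinases, enzymes and inhibitors. ADGRE1, an adhesion receptor known from macrophages, had Ni-W/UT ratios of 1.89 and 2.05. IKBKE, a kinase upstream of interferon induction, had ratios of 1.55 and 1.54 after 1.17 and 1.23 in Ni-E. UBA7, the enzyme that activates the ubiquitin-like protein ISG15, had ratios of 1.55 and 1.48. TRIM31, a ubiquitin ligase, and IL16, a chemoattractant cytokine, had ratios of 1.78 and 1.82, and of 1.67 and 1.98. VSIR, an inhibitory immune receptor, C1R, a protease of the complement cascade, and PIAS1, an inhibitor of STAT proteins, were also members. Over all 21 genes of the group the ratios ran from 1.4 to 5.6, with a median of 1.78 in replicate 1 and 1.71 in replicate 2.

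**Figure D2:**
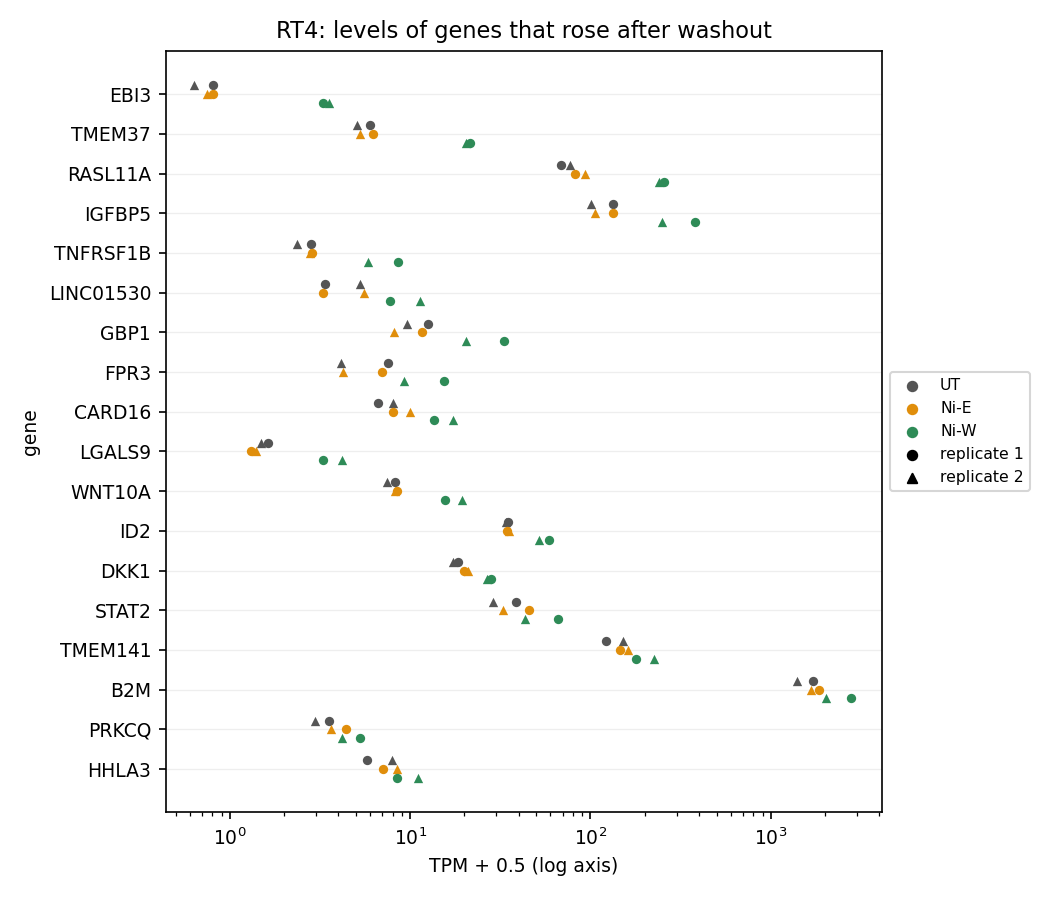
Levels of rising genes chosen by the naming rule, as TPM + 0.5 on a log axis, with 1 row per gene and 1 point per library (circles replicate 1, triangles replicate 2; grey UT, orange Ni-E, green Ni-W). UT and Ni-E points lie together, and the green points lie to their right within each replicate. MIR671 is left out because it rests on 2.64 estimated counts.

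Most genes of the interferon list did not share this course, because 39 of the 46 with at least 2 TPM were already above the Ni-E bound in both replicates. Of those 46 interferon-stimulated genes, 44 met the rise bound on Ni-W, and 42 of those 44 missed the bound on Ni-E. GBP1 and STAT2 were the 2 that met both. Over the 12467 genes with at least 2 TPM, 1421 were above the Ni-E bound in both replicates. The rise bound on Ni-W was met by 789, and 725 of those missed the bound on Ni-E. In edgeR's quasi-likelihood test across all genes (at least 1.5-fold, Benjamini-Hochberg adjusted p below 0.05), 16 genes of the list were called higher in Ni-E and 18 in Ni-W, and 34 and 44 with the replicate number as a block. The same test called 211 of 14502 genes higher in Ni-E cells (1.45%) and 103 lower (0.71%), and 73 higher in Ni-W cells (0.503%). With the block it called 1108 genes higher in Ni-E (7.64%) and 840 higher in Ni-W (5.79%). The median log2 difference of the list was 1.0 in Ni-E and 2.03 in Ni-W, against 0.0 and 0.04 over all genes with at least 2 TPM. For MHC class I, 5 of 13 genes reached 2 TPM, and B2M was the member. Of those 5, 3 were above the bound in Ni-E in both replicates, and 3 met the rise bound in Ni-W.

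TMEM37 and RASL11A had the clearest rises outside the immune group. TMEM37, a membrane protein related to calcium channel gamma subunits, was at 5.46 and 4.58 TPM in UT, 5.72 and 4.76 TPM in Ni-E, and 21.04 and 19.91 TPM in Ni-W. The 2 Ni-W libraries agree closely and stand 3.61-fold and 4.02-fold above UT, a log2 difference of 1.93 ± 0.11 (SD, n = 2). RASL11A, a small GTPase of the RAS family, was at 68.24 and 76.65 TPM in UT, 81.5 and 92.21 TPM in Ni-E, and 255.1 and 240.8 TPM in Ni-W. It was about 1.2-fold higher in Ni-E in both replicates, with ratios of 1.19 and 1.2, before ratios of 3.72 and 3.13 in Ni-W.

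Secreted and matrix proteins formed a further group. IGFBP5, which binds insulin-like growth factors, was at 132.9 and 99.63 TPM in UT, 132.7 and 105 TPM in Ni-E, and 377.2 and 250.1 TPM in Ni-W. It was the most abundant gene among the 12 largest rises, with a log2 difference of 1.41 ± 0.13 (SD, n = 2). TIMP3, an inhibitor of matrix metalloproteinases, had ratios of 1.62 and 1.51.

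Of the WNT pathway list, the ligand WNT10A and the secreted antagonist DKK1 rose. WNT10A was at 7.75 and 6.94 TPM in UT, 7.95 and 7.75 TPM in Ni-E, and 15.1 and 18.89 TPM in Ni-W. DKK1 was at 17.82 and 16.83 TPM in UT, 19.35 and 20.54 TPM in Ni-E, and 27.39 and 26.06 TPM in Ni-W. Both separated Ni-W from the other libraries, and WNT10A rose more, with ratios of 1.89 and 2.61 against 1.52 and 1.53. Of the 22 genes of the list with at least 2 TPM, 5 met the rise bound in Ni-W and 1 met the fall bound, against 789 and 360 of the 12467 genes with at least 2 TPM. The test called 1 gene of the list higher and 0 lower in Ni-W without the block, and 4 higher and 3 lower with it. From the TGF-beta and EMT list, ID2, a dominant-negative helix-loop-helix factor, was the member, at 34.16 and 33.4 TPM in UT, 33.96 and 34.8 TPM in Ni-E, and 58.28 and 51.43 TPM in Ni-W. Of the 20 genes of that list with at least 2 TPM, 12 met the rise bound in Ni-W, and 11 of those 12 missed the bound on Ni-E.

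Transcription and chromatin factors rose less. FHL2, a LIM-domain cofactor, was at 62.33 and 64.24 TPM in UT, 62.93 and 67.63 TPM in Ni-E, and 126.3 and 114.9 TPM in Ni-W. Its ratio of 2.02 in replicate 1 was the highest among the 7 genes of this group. DNMT3B, a de novo DNA methyltransferase, was at 3.05 and 3.47 TPM in UT, 3.19 and 3.64 TPM in Ni-E, and 4.61 and 5.1 TPM in Ni-W. The homeobox genes HOXA6 and HOXC13 had ratios of 1.44 and 1.43, and of 1.44 and 1.41. Genes of mitosis included HJURP, the chaperone of the centromeric histone CENP-A, with ratios of 1.65 and 1.49, and CDCA2, a regulator of mitotic phosphatase, with 1.62 and 1.41. None of the 43 genes of the cell cycle list was a rising member, against 64 of all 12467 genes with at least 2 TPM.

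Among enzymes, KYNU, the kynureninase of tryptophan breakdown, was at 48.65 and 34.39 TPM in UT, 48.36 and 42.09 TPM in Ni-E, and 86.66 and 57.66 TPM in Ni-W. The transcript length that RSEM assigned to it differed 1.62-fold between libraries, which enters its TPM, and its blocked log2 difference in counts was 0.62 ± 0.1 (SE) against 0.78 in TPM. EPHX2, a soluble epoxide hydrolase, and A4GALT, a glycolipid galactosyltransferase, had ratios of 1.61 and 1.55, and of 1.46 and 1.48. TMEM141 was among the 4 most abundant rising genes, at 121.4 and 151.7 TPM in UT, 144.8 and 160.9 TPM in Ni-E, and 178.9 and 223.7 TPM in Ni-W.

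The non-coding rises need their counts beside them. LINC01530 was at 2.87 and 4.78 TPM in UT, 2.8 and 5.04 TPM in Ni-E, and 7.18 and 10.77 TPM in Ni-W, from 696 estimated counts. MIR671, a microRNA precursor of 118 bases inside CHPF2, was listed at 0 in the UT and Ni-E libraries and at 80.8 and 29.47 TPM in Ni-W. Those levels came from 2.64 estimated counts in all, so no fold is given. IRAIN, FUT8-AS1 and LINC01530 overlap IGF1R, FUT8 and ZNF175, and the coding gene FPR3 overlaps ZNF577. Without a stated strand, reads in the overlap cannot be told apart from those of the overlapping gene. At the bound, PRKCQ (1.49 and 1.4) and HHLA3 (1.47 and 1.4) were the last to enter. ANXA2 (1.398 and 1.432) and FRG1FP (1.397 and 1.402) were the nearest to stay out.

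The falling genes had a median Ni-W/UT ratio of 0.617 in replicate 1 and 0.622 in replicate 2, and a median Ni-E/UT ratio of 0.959 and 0.964. Ni-E was below UT in both replicates in 12 of the 30 genes and above UT in both in 9. Over the 12467 genes with at least 2 TPM, these numbers were 4642 and 4477. The level in both replicates was at most 0.5 of UT in 4 genes, SNORA3A, HIST2H2BE, DNAJB3 and FOS, against 95 of those 12467. Both Ni-W libraries were below all UT and Ni-E libraries in 25 of the 30, which held for 401 of the 12467 genes with at least 2 TPM (3.22%). The 5 whose libraries overlapped were LTB4R2, GPC2, ODC1, SNHG30 and CABP1. Unlike the rises, the bounds for a fall were met by similar numbers of genes in each replicate alone, 161 in replicate 1 and 175 in replicate 2. Ni-W was at most 0.71 of Ni-E in both replicates in 15 of the 30, against 241 of the 12467 genes.

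FOS, a subunit of the transcription factor AP-1, was the most abundant falling gene. It was at 552.7 and 550.4 TPM in UT, 587.2 and 534.6 TPM in Ni-E, and 157.2 and 249.1 TPM in Ni-W. The UT and Ni-E libraries lay within a narrow range, and the Ni-W libraries stood at 0.285 and 0.453 of UT, a log2 difference of -1.48 ± 0.47 (SD, n = 2). ZFP36, which promotes the decay of AU-rich messenger RNAs, was at 235 and 274.2 TPM in UT, 274.1 and 279.5 TPM in Ni-E, and 135.7 and 152.9 TPM in Ni-W. Its ratios of 0.578 and 0.558 were closer together than those of FOS, and both Ni-W libraries lay below the other 4.

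FOS and ZFP36 belong to the immediate early and MAPK feedback list, and other genes of the list were below UT in Ni-W cells from a raised level in Ni-E cells. Of the 31 genes of the list with at least 2 TPM, 8 met the bound on Ni-E and 16 were above the Ni-E bound in both replicates. The fall bound in Ni-W was met by 6 genes, of which FOSB, IER3, DUSP1 and NR4A1 were above the Ni-E bound, and the rise bound by 4. Over the 12467 genes with at least 2 TPM, 1421 were above the Ni-E bound in both replicates, 360 met the fall bound and 789 the rise bound. With the replicate block, edgeR called 7 genes of the list lower in Ni-W than in UT (FOS, FOSB, JUND, IER3, DUSP1, ZFP36 and NR4A1) and 3 higher, against 403 and 840 of all 14502 genes. Without the block, 0 of the list were called in either direction in Ni-W.

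HIST2H2BE, now named H2BC21, encodes a histone H2B and had the largest fall after SNORA3A, by the smaller of its 2 replicate changes. It was at 33.41 and 32.24 TPM in UT, 34.92 and 35.21 TPM in Ni-E, and 10.63 and 12.02 TPM in Ni-W. The 4 libraries before washout were nearly alike and the 2 after it also, with ratios of 0.328 and 0.382 and a log2 difference of -1.5 ± 0.16 (SD, n = 2). Of the 18 replication-dependent histone genes with at least 2 TPM, 9 were above the Ni-E bound in both replicates, 3 met the fall bound in Ni-W and 0 met the rise bound. Over the 12467 genes with at least 2 TPM, these numbers were 1421, 360 and 789. E2F1, which drives genes of DNA replication, was the member of the cell cycle list, at 43.53 and 40.24 TPM in UT, 47.62 and 42.62 TPM in Ni-E, and 30.26 and 28.26 TPM in Ni-W. Of the 43 genes of that list with at least 2 TPM, E2F1 was the 1 gene that met the fall bound, and 3 met the rise bound.

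**Figure D3:**
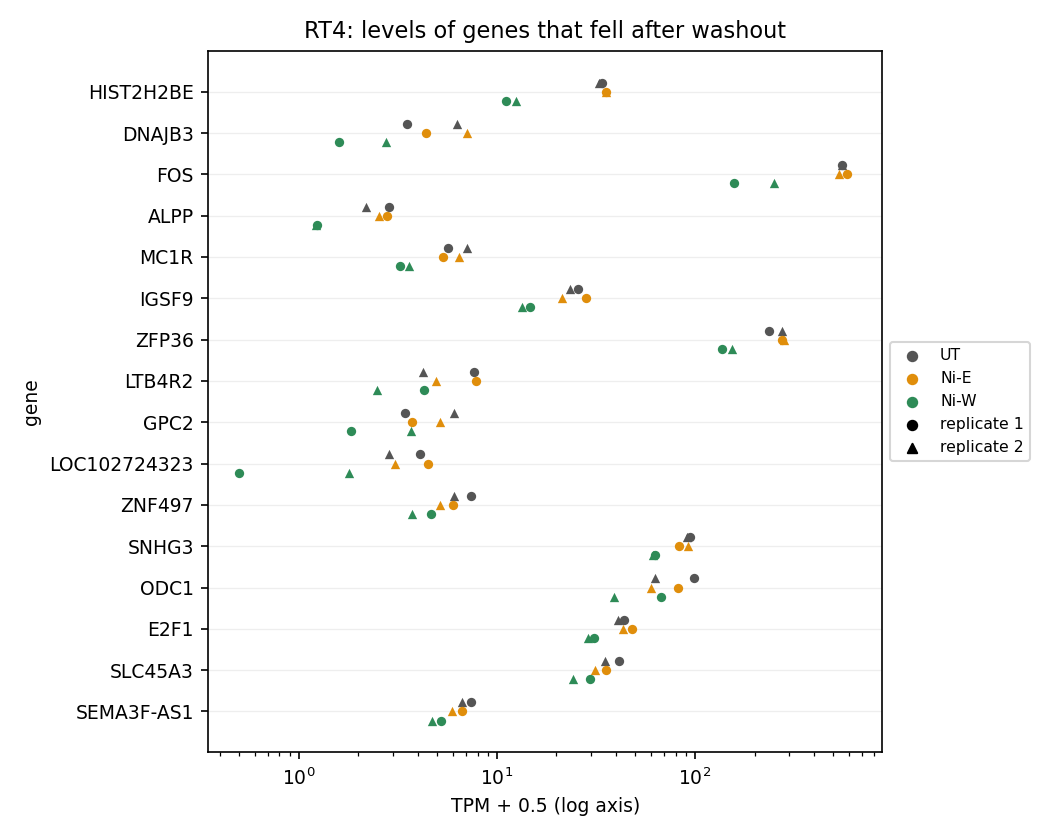
Levels of the falling genes chosen by the naming rule, as TPM + 0.5 on a log axis, with 1 row per gene and 1 point per library (circles replicate 1, triangles replicate 2; grey UT, orange Ni-E, green Ni-W). HIST2H2BE and FOS show the widest gap between the green points and the rest. SNORA3A is left out because it rests on 4 estimated counts.

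Several falling genes encode receptors or cell surface proteins. MC1R, the melanocortin receptor, was at 5.15 and 6.57 TPM in UT, 4.86 and 5.98 TPM in Ni-E, and 2.73 and 3.11 TPM in Ni-W. IGSF9, an immunoglobulin superfamily protein, was at 25.25 and 22.77 TPM in UT, 27.65 and 20.77 TPM in Ni-E, and 14.25 and 12.9 TPM in Ni-W. Both separated Ni-W from the other libraries, with ratios of 0.572 and 0.511 for MC1R, and of 0.573 and 0.576 for IGSF9. ALPP, placental alkaline phosphatase, was at 2.37 and 1.68 TPM in UT, 2.28 and 2.04 TPM in Ni-E, and 0.73 and 0.72 TPM in Ni-W. It has near-identical paralogs, as has the chorionic gonadotropin gene CGB7 (ratios 0.368 and 0.64), so that both are uncertain. Their estimated counts summed to whole numbers, 323 and 219, which does not settle this, because reads with multiple hits may have been dropped. GPC2, a glypican, had ratios of 0.538 and 0.61, but its Ni-W level in replicate 2 (3.2 TPM) was above its UT level in replicate 1 (2.92 TPM). LTB4R2, a leukotriene B4 receptor, had ratios of 0.563 and 0.586, and it overlaps LTB4R.

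ODC1 and SNHG3 were among the 4 most abundant falling genes. ODC1, the rate-limiting enzyme of polyamine synthesis, was at 98.76 and 62.5 TPM in UT, 81.82 and 59.8 TPM in Ni-E, and 66.82 and 38.59 TPM in Ni-W. Its Ni-W level in replicate 1 was above its UT level in replicate 2, and within each replicate Ni-W was the lowest. SNHG3, a host gene of small nucleolar RNAs, was at 93.59 and 90.16 TPM in UT, 82.55 and 91.82 TPM in Ni-E, and 62.03 and 60.64 TPM in Ni-W. RBM3, a cold-inducible RNA-binding protein, had ratios of 0.647 and 0.579, and TUBB3, a tubulin of neurons, 0.642 and 0.579. ZNF497, a zinc finger protein, had ratios of 0.63 and 0.616 after 0.807 and 0.849 in Ni-E, close to the lower bound on Ni-E.

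Other falls carry limits of counting or annotation. SNORA3A, a small nucleolar RNA of 130 bases within RPL27A, was at 23.83 and 11.66 TPM in UT, 24.54 and 13.83 TPM in Ni-E, and listed at 0 in both Ni-W libraries. It had 4 estimated counts in all, so no fold is given. LOC102724323, within ALOX5, was at 3.59 and 2.37 TPM in UT, 3.98 and 2.55 TPM in Ni-E, and 0 and 1.29 TPM in Ni-W, from 50 estimated counts. DNAJB3, a transcribed pseudogene in the annotation, lies in the UGT1A locus and had ratios of 0.452 and 0.441. At the bound, SLC45A3 (0.708 and 0.694) and SEMA3F-AS1 (0.708 and 0.706) were the last to enter. SEMA3F-AS1 overlaps RBM5 and SEMA3F, and the strand of its reads is not stated either. TPRXL (0.6829 and 0.7103) and RCN3 (0.7194 and 0.6302) were the nearest to stay out.

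Annotation was not used by the rule. By the RefSeq annotation, 57 of the 64 rising genes (89.1%) and 23 of the 30 falling genes (76.7%) were protein coding, against 91.9% of all genes with at least 2 TPM. Another gene overlapped 60.9% of the rising, 70.0% of the falling and 60.5% of all such genes. The median of the mean level was 11.6 TPM for rising genes and 11.1 TPM for falling genes, against 18.7 TPM. The totals of estimated counts were not whole, a sign that reads were divided between genes, for 6 members, MIR671, AGAP11, LTB4R2, SNHG3, TNFRSF6B and JMJD7-PLA2G4B. Within 1 Mb of each other lay the rising pairs GBP1 and GBP3, MMEL1 and PRXL2B, LINC01530 and FPR3, and B2M and the pseudogene LOC100419583. The rising genes ACTR3C, GIMAP2 and MIR671 on chromosome 7 also lay so close. The falling pairs were MC1R and TUBB3, BICDL1 and CABP1, and ALPP and TIGD1. Neighbours with opposite courses were HIST2H2BE and CIART, SLC45A3 and IKBKE, SEMA3F-AS1 and UBA7, DNAJB3 and HJURP, and E2F1 and DNMT3B.

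The test across all genes bears on the same contrasts that chose the members, so its calls are given beside the background without being read as support. Without a block, edgeR called 2 of the 63 rising genes tested higher in Ni-W than in UT, TMEM37 and IGFBP5, and 0 of the 29 falling genes lower. It called 73 of 14502 genes higher (0.503%) and 14 lower (0.0965%). With the replicate block, 39 of the 63 and 23 of the 29 were called, against 840 genes higher (5.79%) and 403 lower (2.78%). MIR671 and SNORA3A did not pass the filter on low counts. In Ni-E against UT no member was called in either fit, since the rule keeps such changes out, and the block called 1108 genes higher (7.64%) and 725 lower (5.0%). In Ni-W against Ni-E, the fit without the block called 0 of 14502 genes higher (0.0%) and 0 lower (0.0%), while 472 and 336 genes had an unadjusted p below 0.05 and DESeq2 called 89 and 50. With the replicate block that contrast called 394 genes higher (2.72%) and 261 lower (1.8%), of which 25 were rising and 12 falling members. Leaving out any 1 of the 6 libraries left 0 members called in Ni-W against UT in the fit without the block.

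Members were 94 of the 12467 genes with at least 2 TPM, so a list of the sizes below without a member says nothing of that list. Of 39 HIF targets with at least 2 TPM, 35 were above the Ni-E bound in both replicates, against 1421 of the 12467 genes. Besides the lists above, no member was found among those 39 HIF targets, the chemokines and NF-kB targets (24), the NRF2 targets (22) or the p53 targets and CDK inhibitors (23). None was found among genes of cholesterol synthesis (25), the ATF4 and ER stress response (25), metallothioneins and zinc (6), iron handling (13), urothelial differentiation (22), cell junctions (16), the aryl hydrocarbon and retinoid response (12) or the JmjC histone demethylases (23). PU-B and PD-B are the study's names for BEAS-2B genes that were up or down only after the exposure had ended. Of the few examples of these listed here, 5 and 3 had at least 2 TPM in RT4 and none was a member, which says nothing of the whole categories. For PU-B and PD-B as whole sets, the study reported a similar course of expression in RT4.

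H3K4me3 in BEAS-2B cells was the one readout that the rule did not use. H3K4me3 marks active promoters. Each promoter has an RPKM over 2 kb on each side of the start, and the chromatin dynamic score is the square root of RPKM over the library's median RPKM, minus the same in the control. With 1 library per condition there is no replicate check and no test. In UT cells the median level was 3.57 RPKM over the 60 rising genes with a promoter and 3.67 RPKM over the 25 falling ones, against 6.14 RPKM for all 11668 genes with at least 2 TPM in RT4.

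In Ni-W against UT the median score was -0.0741 for rising genes and -0.145 for falling genes, against -0.181 for all genes with at least 2 TPM. The score was above 0 in 18 of 60 rising genes (30.0%), 7 of 25 falling genes (28%) and 23.4% of all such genes. The medians of both sets were thus below 0, as was that of all such genes. In Ni-E against UT the medians were 0.0293 and 0.0301, against 0.0757. These 2 medians were below 0, at -0.0459 and -0.0207, without scaling to the library median, and that of the rising genes was -0.016 after quantile normalization, so their sign is not fixed.

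Single promoters differed. ID2 had 4.4 RPKM in UT (95% Wilson interval 4.03 to 4.81), 5.49 RPKM in Ni-E (5.13 to 5.88) and 4.29 RPKM in Ni-W (3.94 to 4.68), and a Ni-W vs UT score of 0.283, the highest of the rising genes. GBP3 followed with 0.265, from 4.71, 4.83 and 4.47 RPKM. GBP1 had a score of 0.103, from 3.7 RPKM in UT and 3.01 RPKM in Ni-W, and B2M one of 0.149, the latter from 0.379, 0.44 and 0.459 RPKM. SOCS1, which also held an ISRE match, had a score of -0.417 with 5.11 RPKM in UT (4.71 to 5.54) and 2.15 RPKM in Ni-W (1.91 to 2.43). Among the falling genes HIST2H2BE had the highest score, 0.195, with 6.8 RPKM in UT and 5.8 RPKM in Ni-W, and ZFP36 the lowest, -0.437, with 8.84 RPKM in UT and 4.2 RPKM in Ni-W. FOS had a score of -0.122. For GBP1, GBP3, ID2 and HIST2H2BE the RPKM value was lower in Ni-W than in UT, and the score was above 0 after scaling to the library medians. The intervals cover counting error only.

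**Figure D4:**
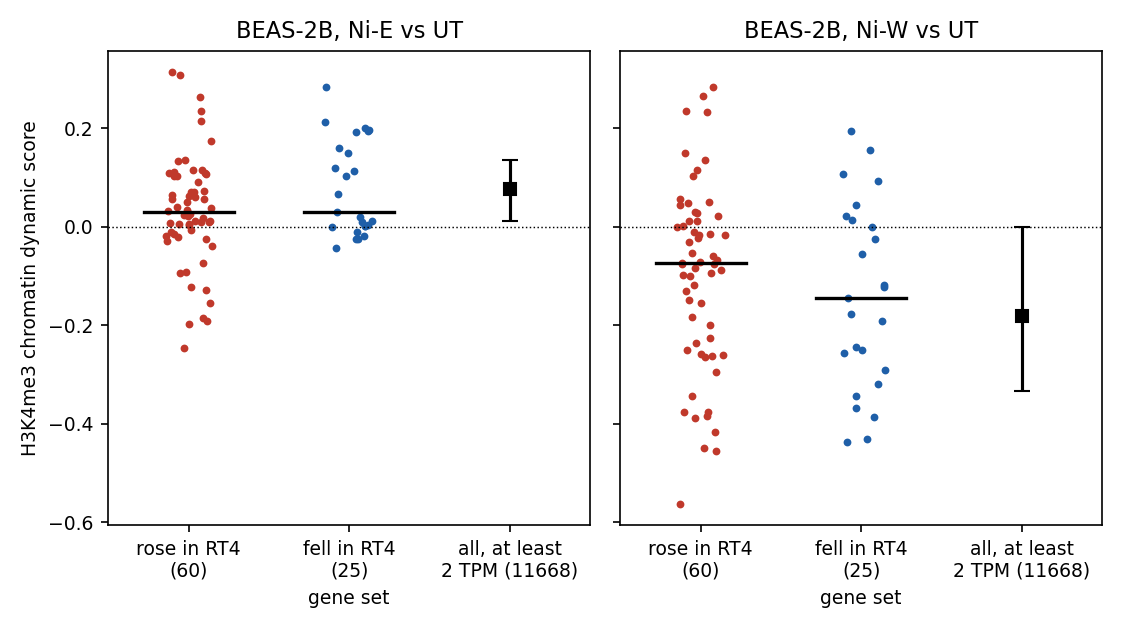
H3K4me3 chromatin dynamic score (y axis, no unit) of BEAS-2B promoters for Ni-E vs UT (left) and Ni-W vs UT (right), with 1 library per condition. Points are genes, thick lines the medians, and squares with bars the median and quartiles of all genes with at least 2 TPM in RT4. In Ni-W vs UT the medians of the rising genes (-0.0741) and falling genes (-0.145) both lie below 0.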

How the data were processed

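For RT4 cells, the authors deposited, for 28252 genes named by RefSeq symbol, the estimated counts that RSEM gives together with TPM and FPKM. The labels name STAR and hg38, whereas the methods of the study describe hg19 alignments, so gene coordinates were not taken from these files, and those printed with promoter sequences are RefSeq's own on GRCh38.p14. The deposited FPKM values were not used. Non-integer estimated counts were rounded for edgeR 4.0.16 (quasi-likelihood test, TMM factors, expression filter, 1 model of 3 groups, R 4.3.3). Genes were called at 1.5-fold and a Benjamini-Hochberg adjusted p below 0.05 over 14502 genes. For BEAS-2B cells, the authors deposited RPKM values of 26237 promoters, aligned to hg38 with BWA. Each library's values were multiples of the worth of 1 read, within rounding, which gave depths of 28385725 (UT), 37493949 (Ni-E) and 29933551 (Ni-W) reads. Although the study describes more ChIP replicates, 1 library per condition was used here. ChIP input libraries and BEAS-2B RNA-Seq were not analysed here.

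The replicate numbers come from titles in which 1 library of each group is marked as a duplicate. The deviations of same-numbered libraries from their group means correlated over 14502 genes, with r = 0.657 (UT and Ni-E), 0.764 (UT and Ni-W) and 0.689 (Ni-E and Ni-W), so the numbers were taken to pair the libraries and fits with a replicate block are given beside those without.

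The members, gene lists and settings were chosen with earlier results of these data known. Genes were named by a rule, apart for rises and falls: the 12 with the largest change by the smaller of the 2 replicate changes, the 4 with the highest mean TPM, the 2 nearest the bound on each side, and members of the lists. Other genes were chosen after their values were seen. Some results under the rule are not reported here. The scripts were tested on simulated data. There, edgeR without the block called 8 of 100 2-fold and 73 of 100 4-fold changes, with 13 false calls. DESeq2 called 35 and 89, with 67 false calls. In data simulated with a shift between replicate numbers, edgeR with the block called 87 and 100, with 10 false calls. In the RT4 data DESeq2 tested 19464 genes. Alternatives were DESeq2 1.42.0, limma 3.58.1 on log2(TPM + 0.5), RLE size factors, other filters, pseudocounts and scalings, and each library left out. Python 3.11.15, pandas 2.3.3, numpy 2.4.6 and matplotlib 3.10.9 were used.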

Additional observations from a re-analysis of the deposited data

How the results depend on the processing

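The number of genes that met the rule moved most when 1 replicate was used alone, and also with the pairing of libraries and the bound for Ni-E. Against 64 rises and 30 falls, ratios of group means (no replicate block) gave 356 and 99, every library against every other gave 20 and 8, a narrower Ni-E/UT bound from 0.9 upwards gave 20 and 11, and the rule in 1 replicate alone gave 154 to 908 rises and 161 to 175 falls. No filter on TPM gave 89 rises and 46 falls. A pseudocount of 0 TPM gave 59 and 31, of which 50 and 28 were shared with the reported genes, and CPM with TMM factors gave 58 and 36, of which 43 and 24 were shared.

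For Ni-E against UT, 211 genes were called higher and 103 lower. DESeq2 called 461 and 271, at least 10 counts in every library gave 139 higher, limma on log2(TPM + 0.5) gave 122 higher, and the replicate block 1108 and 725. Leaving out 1 library gave 0 to 214 higher and 0 to 107 lower, with 0 without either Ni-E library, and an arm left with 1 library was assumed to vary like the others. For Ni-W against UT, 73 were called higher and 14 lower. DESeq2 called 339 and 98, no filter 162 and 31, at least 10 counts in every library 46 and 8, the replicate block 840 and 403, only the 2 groups compared 0 and 0, and 1 library left out 0 to 35 and 0 to 3. For Ni-W against Ni-E, 0 were called, DESeq2 called 89 and 50, no filter 9 and 5, and the replicate block 394 and 261.

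Among the members, 2 rising and 0 falling genes were called in Ni-W against UT. DESeq2 called 10 and 4, no filter 5 and 1, at least 10 counts in every library 1 rising, only the 2 groups compared 0 rising, limma 4 and 2, and the replicate block 39 and 23. Against Ni-E, DESeq2 called 8 and 2 and the replicate block 25 and 12. No member was called in Ni-E against UT in any setting run, which the rule's bound on Ni-E largely fixes in advance. The causes were not tested.

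For H3K4me3, the median Ni-E vs UT score of rising genes (0.0293) was -0.0459 without median scaling, -0.016 after quantile normalization and -0.0729 as a log2 ratio of (RPKM + 1). That of falling genes (0.0301) was -0.0207, 0.0 and -0.0245, and 0.103 with at least 1 RPKM. For Ni-W vs UT the medians in the same order, with at least 1 RPKM last, were -0.293, -0.0438, -0.418 and -0.116 for rising genes and -0.41, -0.0512, -0.584 and -0.245 for falling genes. For Ni-W vs Ni-E the reported medians were -0.109 and -0.202, and those without scaling, after quantile normalization and as log2 ratios were -0.247, -0.0155 and -0.352 for rising genes and -0.341, -0.0702 and -0.513 for falling genes. Over all promoters the Ni-W vs UT median moved from -0.0266 to -0.165 without scaling and -0.0112 after quantile normalization.

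Of the values of single named genes under the alternatives, 332 moved by less than the spread between replicates, 120 moved by more and 0 changed sign. MIR671 and SNORA3A rest on 2.64 and 4 estimated counts.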
